A study of Mus musculus with 20 samples.

Results

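The response of activated mouse CD8+ T cells to saturating doses of native IL-21 (mIL-21) was examined in experiment 2 of the series, in 6 of the 20 libraries. The 6 libraries were identified from their labels. They are the 2 libraries with mIL-21 at 10 nM, the 2 with mIL-21 at 100 nM and the 2 unstimulated libraries of the same experiment. All cells were wild-type CD8+ T cells from the spleens of C57BL/6J mice aged 6 to 8 weeks, enriched by depletion of other cells, activated with plate-bound anti-CD3 at 2 µg/mL and soluble anti-CD28 at 1 µg/mL for 48 h and rested overnight. They were then cultured for 24 h with mIL-21, with 21h10 (a designed protein that acts on the IL-21 receptor) or without either. The unstimulated cells had therefore also been activated through CD3 and CD28. The labels call the libraries of a group duplicates and do not say whether they come from separate mice or cultures, so p-values measure only the spread between these libraries, which may be technical.

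IL-21 is a cytokine of CD4+ helper T cells that acts on CD8+ T cells, B cells and NK cells. It binds IL-21R, which pairs with the common gamma chain (encoded by Il2rg). JAK1 and JAK3 on these chains phosphorylate STAT proteins, chiefly STAT3 and also STAT5, which enter the nucleus and bind DNA. SOCS proteins made in response limit the signal. In CD8+ T cells the cytokine is known for supporting cytotoxic function and the survival of memory cells.

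Values are reads of a gene relative to the scaled size of the library (CPM, which does not allow for gene length), with TMM scaling over the 10 libraries of experiment 2, which comprise 2 libraries for each of 5 groups. Fold changes are log2 values from edgeR with their standard error (SE), and a gene passed the test at an adjusted p below 0.05 in the quasi-likelihood test of edgeR, adjusted by the Benjamini-Hochberg method over all 13772 genes tested. The 6 libraries held 31287393 to 43300094 reads on genes. The CD8 T cell markers Cd8a, Cd8b1, Cd3d, Cd3e and Cd3g summed to 2085 to 2192 CPM in unstimulated cells and to 2520 to 2662 CPM with mIL-21. The markers of CD4 and regulatory T cells, Cd4, Foxp3 and Zbtb7b, summed to 20.8 to 24.5 CPM without cytokine and to 33.7 to 40.6 CPM with it. Cd4 fell from 2.94 and 2.86 CPM to between 0.857 and 1.28 CPM, while Foxp3 rose from 0.192 and 0.164 CPM to between 1.78 and 3.10 CPM and Zbtb7b from 21.4 and 17.7 CPM to between 30.5 and 36.7 CPM. The neutrophil genes S100a8, S100a9 and Elane had no read in any of the 6 libraries, and Mpo was at most at 0.194 CPM.

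STAT proteins bind the letters TTCNNNGAA, which read the same on both strands. This motif was looked for in the 250 bases before each start in RefSeq's promoter table of GRCm38.p6, where 366 of the 464 listed genes described here have an entry. It was present in 7.02% of all 32851 windows. Among tested genes with a window, 8.0% of those that rose, 6.89% of those that fell and 7.16% of those that did not pass the test held it. The windows of Socs3, Bcl6 and Ifng, which rose, and of Lta, which fell, are shown because all 4 hold the motif (in capitals) and belong to genes described here. They are chr11:117969452-117969616 (minus strand, bases -250 to -86 before the Socs3 start), chr16:23988853-23989102 (minus strand, Bcl6), chr10:118440796-118441045 (plus strand, Ifng) and chr17:35205352-35205601 (minus strand, Lta), each read 5′ to 3′.
Socs3: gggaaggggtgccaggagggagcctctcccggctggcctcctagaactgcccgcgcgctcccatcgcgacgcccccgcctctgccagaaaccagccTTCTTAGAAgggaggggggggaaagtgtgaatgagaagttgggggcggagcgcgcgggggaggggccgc
Bcl6: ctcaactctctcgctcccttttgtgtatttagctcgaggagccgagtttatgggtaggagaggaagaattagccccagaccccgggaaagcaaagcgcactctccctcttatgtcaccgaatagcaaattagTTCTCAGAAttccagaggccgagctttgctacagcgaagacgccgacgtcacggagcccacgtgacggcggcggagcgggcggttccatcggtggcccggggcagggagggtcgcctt
Ifng: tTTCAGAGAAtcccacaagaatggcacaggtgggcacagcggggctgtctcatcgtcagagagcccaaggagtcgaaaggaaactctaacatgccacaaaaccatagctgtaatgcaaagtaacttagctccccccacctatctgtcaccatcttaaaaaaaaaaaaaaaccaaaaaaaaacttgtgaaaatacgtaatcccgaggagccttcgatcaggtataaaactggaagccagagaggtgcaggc
Lta: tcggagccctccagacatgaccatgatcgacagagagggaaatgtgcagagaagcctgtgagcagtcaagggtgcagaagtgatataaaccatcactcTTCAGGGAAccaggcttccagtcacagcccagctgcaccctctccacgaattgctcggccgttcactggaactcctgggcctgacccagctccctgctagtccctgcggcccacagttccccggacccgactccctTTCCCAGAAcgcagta
The motif begins at base -154 before the start of Socs3, at -118 for Bcl6, at -249 for Ifng and at -152 and -16 for Lta. Bcl6 has 2 listed windows, and the one not shown (chr16:23981284-23981533) holds the motif at -168, -122 and -88. Il10 and Socs2, which also rose, have no entry. A match describes the letters only and is not a binding site shown by these data.

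The first question was whether the cells responded differently to the 2 doses. No gene passed the test between 100 nM and 10 nM mIL-21 (0.0% of 13772), either with edgeR or with DESeq2. At an unadjusted p below 0.05 there were 361 genes with edgeR and 307 with DESeq2, fewer than chance alone would give. The edgeR spread was shared by all groups of experiment 2, of which the unstimulated libraries differed most from each other. With the 2 dose groups fitted alone, 629 of 12876 genes lay below that p and again none passed. The count moved up or down when single libraries were left out, so a low count does not show that the doses acted alike. In the shared fit the genes with the smallest p were Fos, Egr1 and Il10, each with an adjusted p of 0.989. Fos, a subunit of the AP-1 transcription factor, was at 19.3 and 24.6 CPM at 10 nM and at 14.3 and 13.2 CPM at 100 nM, a log2 difference of -0.67 with a 95% interval of -1.01 to -0.33. Egr1, an immediate early transcription factor, was at 173 and 242 CPM and at 133 and 155 CPM, a log2 difference of -0.52 with an interval of -0.79 to -0.26. For Il10 the difference was -0.39, with an interval of -0.60 to -0.17. In all 3 genes both libraries at 100 nM lay below both at 10 nM. They were picked for the smallest p of all genes tested, so this separation follows from the choice. The intervals were not adjusted for it.

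The depth allowed differences between doses to be bounded for most genes. The 95% interval of the dose difference lay within 1 log2 unit on either side of 0 for 10926 of 13770 genes (79.3%). Among the 7228 genes that passed the test of mIL-21 against unstimulated cells, it did so for 6372 (88.2%). The median size of the log2 difference was 0.11 between doses and 0.39 between mIL-21 and no cytokine. For the remaining genes a change by a factor of 2 between the doses was not excluded by its interval, and with 2 libraries a dose, smaller differences may have gone undetected. Against the unstimulated cells, 3098 genes rose and 3265 fell at 10 nM (46.2% of those tested), and 3100 rose and 3264 fell at 100 nM (46.2%). These 2 comparisons share the unstimulated libraries.

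**Figure D1:**
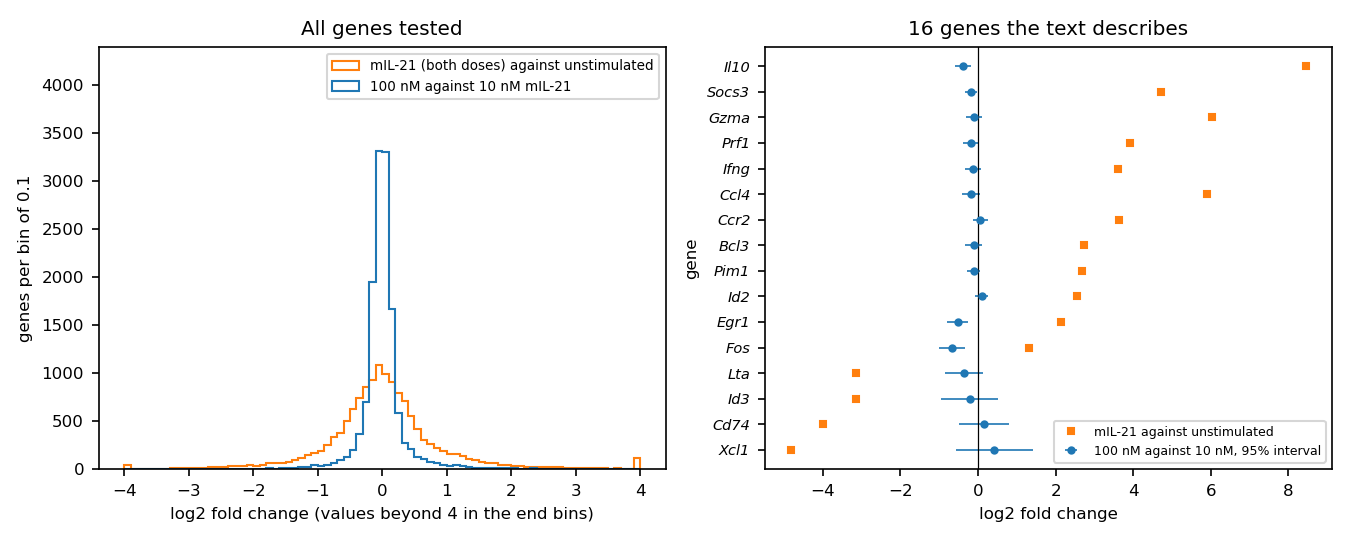
Left, the number of genes in each bin of 0.1 log2 units for mIL-21 at both doses against unstimulated cells (orange) and for 100 nM against 10 nM (blue), with the axis in log2 fold change. Right, 16 genes with their dose difference and its 95% interval (blue) and their change from unstimulated cells (orange); the dose differences lie between -0.67 and 0.42, while the changes from unstimulated cells reach -4.83 and 8.46.

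The comparison as chosen pooled the 4 libraries with mIL-21 and set them against the 2 unstimulated ones. Of the 13772 genes tested, 7228 passed the test (52.5%), with 3445 that rose (25.0%) and 3783 that fell (27.5%). The size was at least 1 log2 unit for 1015 of the rises and 1003 of the falls. The median log2 fold change of all genes was -0.02. This balance depends on the scaling. With mapped reads as the library size the median was -0.22, and 2107 genes rose while 5583 fell. The share of mapped reads on genes was 76.6% to 80.9% in unstimulated cells and 70.6% to 75.2% with mIL-21, and its part in the result was not tested. Counts of changed genes in a list are read below against the background of 52.5%. A single gene tested on its own could not have reached significance by an exact permutation test of 4 libraries against 2, where the smallest two-sided p is 0.133.

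The 12 largest rises were Pigz, Afap1l1, Moxd1, Il10, Serpinb5, Slc9a2, Miat, Ret, Serpinb1a, Ggt1, Ifitm1 and Hlx, all with the 4 mIL-21 libraries above both unstimulated libraries, as the rule for naming them required. Il10 encodes the anti-inflammatory cytokine IL-10 (chr1:131019845-131024974 in GRCm38). It was at 0.192 and 0.0818 CPM in unstimulated cells, at 56.6 and 59.7 CPM with 10 nM and at 45.2 and 43.8 CPM with 100 nM, a log2 fold change of 8.46 ± 0.19 (SE). Moxd1, a member of the copper monooxygenase family, stood at 0.144 and 0.0546 CPM without cytokine and at 55.2, 57.4, 51.3 and 49.7 CPM with mIL-21, or 8.98 ± 0.18 on the log2 scale. The serpin Serpinb5 went from 0.553 and 0.873 CPM to 229.8, 211, 219.8 and 203.39 CPM, a mean of 216 ± 11.4 (SD, n = 4). All 3 were below 1 CPM in both unstimulated libraries.

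The genes Pigz, Afap1l1 and Slc9a2, had at most 3 reads in each unstimulated library, so only a lower bound of the change can be given. Against a floor of 3 reads per library, Pigz (a mannosyltransferase of the GPI anchor pathway) was at least 44.9-fold higher with mIL-21. The bound was at least 114-fold for Afap1l1, an actin filament associated protein, and at least 162-fold for the sodium-proton exchanger Slc9a2. Ret, a receptor tyrosine kinase, was at 0.505 and 0.191 CPM and then at 84.4, 95.9, 80.1 and 83.5 CPM (7.89 ± 0.18). Ggt1, an enzyme of glutathione breakdown, rose from 2.14 and 2.62 CPM to 283, 319.9, 283 and 293 CPM (6.96 ± 0.12). Ifitm1, a membrane protein of antiviral defence, stood at 743, 770.3, 731 and 671 CPM against 7.48 and 5.29 CPM. A near-identical copy, Gm7676, covers 36.2% of the Ifitm1 transcript, so reads could have been shared between them. Hlx, a homeobox transcription factor, stood at 0.0962 and 0.164 CPM and rose to between 11.534 and 14.9 CPM.

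**Figure D2:**
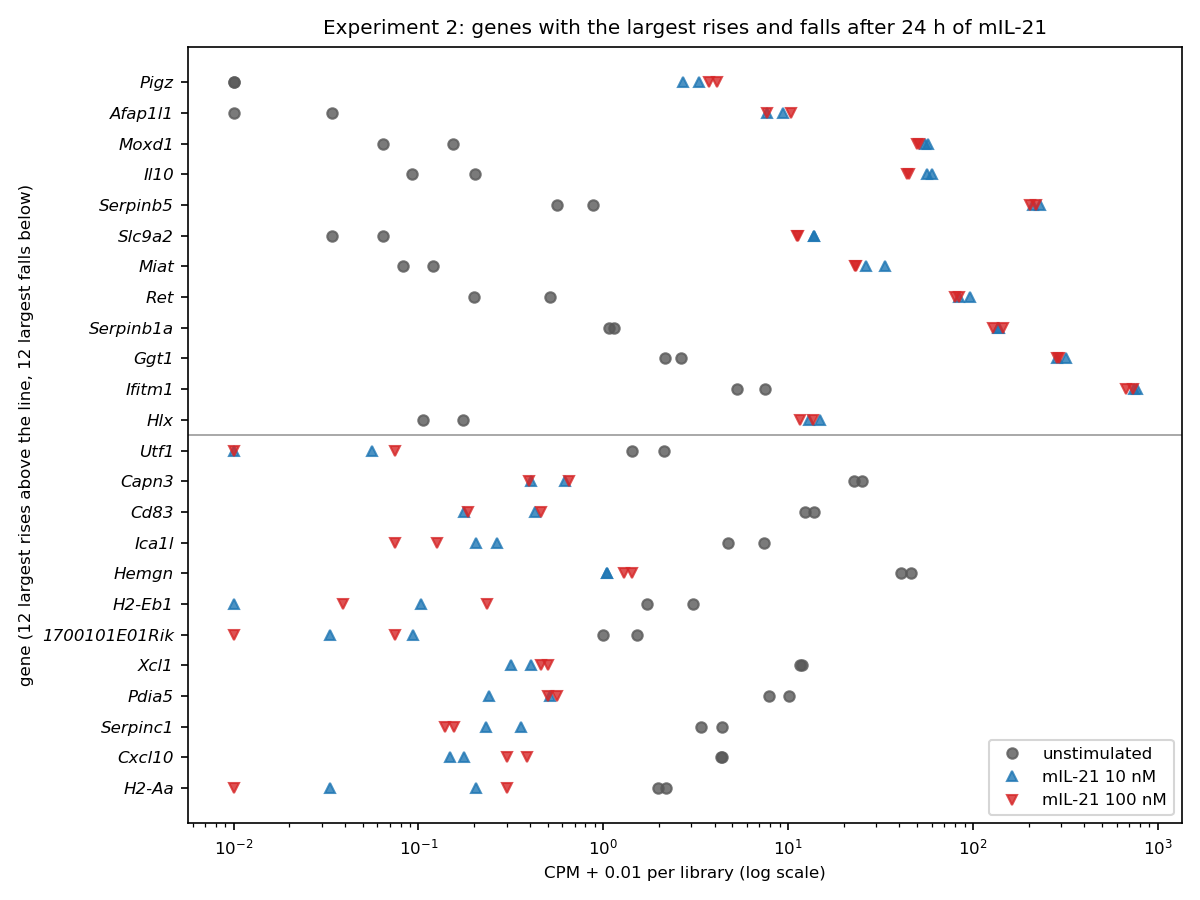
CPM plus 0.01 of every library (log axis) for the 12 largest rises (above the line) and the 12 largest falls (below it), with unstimulated libraries as circles, 10 nM mIL-21 as upward triangles and 100 nM as downward triangles. The groups were chosen not to overlap; triangles of both doses lie together for most genes, from 2.70 CPM for Pigz to 770.3 CPM for Ifitm1 among the rises.

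The 12 largest falls were Utf1, Capn3, Cd83, Ica1l, Hemgn, H2-Eb1, 1700101E01Rik, Xcl1, Pdia5, Serpinc1, Cxcl10 and H2-Aa. Hemgn, a nuclear protein of blood cell progenitors, fell from 40.8 and 46.4 CPM to 1.03, 1.04, 1.43 and 1.29 CPM (-5.19 ± 0.14). Capn3, a calcium-dependent protease, fell from 25.0 and 22.6 CPM to between 0.387 and 0.641 CPM (-5.54 ± 0.27). Cd83, a surface protein of activated lymphocytes and dendritic cells, fell from 12.3 and 13.8 CPM to between 0.167 and 0.452 CPM (-5.41 ± 0.29). All 12 were at under 1.5 CPM in every mIL-21 library. Utf1 and 1700101E01Rik had at most 3 reads in each of those libraries and were at least 21.0-fold and at least 14.8-fold lower. Part of the reads of Serpinc1 may belong to Zbtb37, whose exons on the other strand cover 34.4% of its exonic bases, since no source used here gives the strand setting of the counting.

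Several genes of the IL-21 receptor and its signal path were higher after 24 h with the cytokine. Of 13 genes encoding the receptor chains, JAK kinases and STAT proteins, 7 rose, 2 fell and 4 did not pass the test, with a median log2 fold change of 0.33. Il21r, the receptor's own chain, was at 126 and 118 CPM in unstimulated cells and at 411, 422, 404 and 387 CPM with mIL-21 (1.74 ± 0.08). Il2rg, the common gamma chain, was at 486 and 461 CPM and rose to between 865 and 958 CPM (0.95 ± 0.07). Among the transcription factors, Stat5a rose by 1.23 ± 0.09 and Stat3 by 0.52 ± 0.07 on the log2 scale. Jak1 (0.48 ± 0.07) and Jak3 (0.68 ± 0.12) rose and Tyk2, a kinase of other cytokine receptors, fell (-0.40 ± 0.09). With mapped reads as library size the balance of the list was lost, with 6 genes higher, 6 lower and a median of 0.13. A transcript that overlaps Il2rg on the same strand, Gm20489, covers 30.5% of its exonic bases.

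Inhibitors of cytokine signaling rose or did not pass. Of 12 tested, 6 rose and none fell, a share near the 52.5% of all genes, and mapped-read scaling gave 4 higher and 2 lower. Socs3, which blocks JAK kinases bound to receptors of the gp130 type, had by far the largest change. It was at 11.9 and 11.8 CPM without cytokine, at 322 and 344 CPM with 10 nM and at 293 and 291 CPM with 100 nM, or 26.4-fold higher on the means (4.72 ± 0.09, adjusted p = 7.67e-16). Its gene lies at chr11:117966079-117970047 in GRCm38. The Socs3 window printed above precedes a RefSeq start and lies within this span. Socs2 was at 11.452 and 12.9 CPM and rose to 31.9, 33.5, 32.0 and 35.4 CPM (1.45 ± 0.10). Cish, induced through STAT5 in T cells, rose from 20.7 and 16.2 CPM to between 38.7 and 52.5 CPM (1.20 ± 0.12). Socs1, another JAK inhibitor, stood at 19.1 and 11.6 CPM without cytokine and at 17.3, 21.5, 14.0 and 12.2 CPM with it, so the groups overlapped (0.05 ± 0.16, adjusted p = 0.80).

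Genes known to be linked to STAT3 in lymphocytes were mostly higher. Of 18 tested, 13 rose, 1 fell and 4 did not pass (77.8% called against 52.5% of all genes), with a median of 1.03 against -0.02. After Il10, the largest rises were those of Bcl3, an atypical regulator of NF-kB, and the survival kinase Pim1. Bcl3 was at 26.1 and 22.4 CPM and then at 156, 178, 150.2 and 158 CPM (2.72 ± 0.10). Pim1 was at 69.5 and 62.2 CPM and rose to 433, 451, 423 and 393 CPM (2.69 ± 0.08), and its relative Pim2 rose by 1.09 ± 0.08 on the log2 scale. Ahr, the aryl hydrocarbon receptor, rose from 1.49 and 2.07 CPM to between 7.89 and 9.87 CPM (2.32 ± 0.18). Hif1a, the oxygen-regulated transcription factor, rose from 460.1 and 591 CPM to between 911 and 1003 CPM (0.85 ± 0.09). Myc, the growth regulator, was the member that fell, by a small amount (-0.21 ± 0.08), and Rora, Il23r and Pim3 were among the 4 that did not pass.

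**Figure D3:**
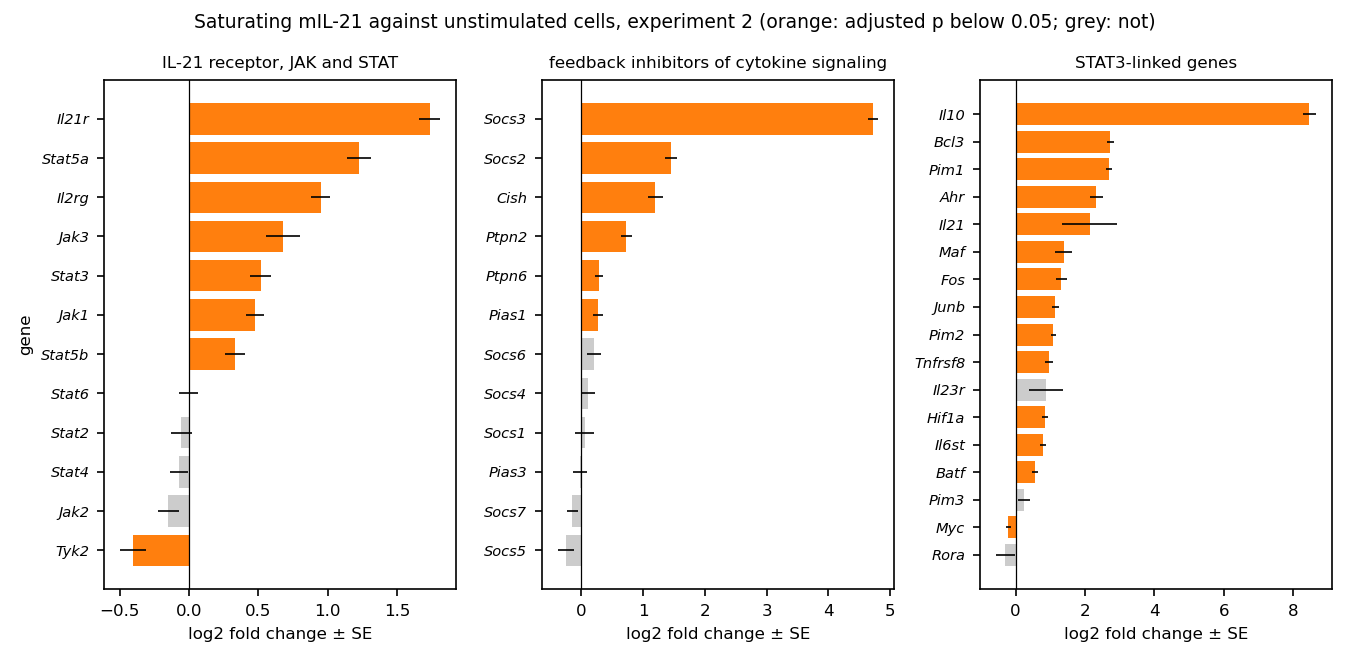
Log2 fold change with its SE for saturating mIL-21 against unstimulated cells, for 12 receptor, JAK and STAT genes, 12 feedback inhibitors and 17 STAT3-linked genes; orange bars passed the test and grey bars did not. Socs3 at 4.72 and Il10 at 8.46 stand far above the other members of their panels, and Il21r at 1.74 is the highest of the first.

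More cytotoxic effector genes rose than fell with mIL-21, and granzyme A and perforin had the largest rises. Of 19 tested, 11 rose, 3 fell and 5 did not pass (73.7%), with a median of 0.47. Gzma was at 46.6 and 50.2 CPM in unstimulated cells, at 3432 and 3128 CPM with 10 nM and at 3326 and 2772 CPM with 100 nM, or 65.4-fold higher on the means (6.03 ± 0.11). Prf1, which encodes the pore protein perforin, was at 18.1 and 16.6 CPM and rose to 259.7, 303, 229.7 and 265 CPM (3.93 ± 0.10). Gzmb, which encodes granzyme B, was at 1082 and 1152 CPM without cytokine and at 6156, 5842, 6374 and 6398 CPM with mIL-21 (2.47 ± 0.07). Gzmk rose from 3.01 and 2.95 CPM to between 19.2 and 21.8 CPM (2.76 ± 0.13). Genes for granule processing and packing also rose, with Ctsw at 1.86 ± 0.09, Nkg7 at 1.28 ± 0.11, Srgn at 0.99 ± 0.09 and the granzyme B inhibitor Serpinb9 at 0.96 ± 0.08 on the log2 scale. The granzymes of the Gzmc to Gzmg cluster did not follow. Gzmc fell from 14.7 and 15.7 CPM to between 6.93 and 10.2 CPM, Gzmf fell from 1.28 and 1.20 CPM to between 0.226 and 0.279 CPM, and Gzmd, Gzme and Gzmg did not pass. Fasl, the ligand of the death receptor Fas, stood at 24.9 and 21.9 CPM without cytokine and between 22.9 and 25.8 CPM with it (0.07 ± 0.09), and did not pass.

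Transcription factors of effector cells changed in both directions. Of 14 tested, 9 rose, 4 fell and 1 did not pass (92.9%). Id2, an inhibitor of E proteins that favours effector cells, rose from 107 and 115 CPM to 642, 609, 676 and 659.9 CPM (2.55 ± 0.08). Both Prdm1, which encodes Blimp-1, and Bcl6, whose protein opposes it, rose. Prdm1 went from 19.5 and 19.2 CPM to 77.9, 90.6, 77.5 and 84.5 CPM (2.09 ± 0.09), and Bcl6 from 7.29 and 7.31 CPM to 35.3, 37.9, 28.6 and 33.8 CPM (2.21 ± 0.11). Tbx21, which encodes T-bet, rose by a smaller amount (0.42 ± 0.08), and its relative Eomes fell from 52.7 and 60.4 CPM to between 42.6 and 48.0 CPM (-0.32 ± 0.09). Irf4, a factor induced by antigen receptor signals, fell from 179 and 170.3 CPM to between 91.6 and 107 CPM (-0.79 ± 0.07). Tox, linked to exhaustion, fell from 12.2 and 12.4 CPM to 2.65, 4.12, 2.88 and 3.81 CPM (-1.86 ± 0.20). Gata3 did not pass (0.14 ± 0.08). Mapped-read scaling left 5 factors higher and 4 lower.

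Memory and quiescence genes also split. Of 17 tested, 10 rose, 5 fell and 2 did not pass (88.2%), with a median of 0.64. Btg1, an antiproliferative gene, rose from 237 and 245 CPM to 961, 933, 920.0 and 896 CPM (1.94 ± 0.07). Satb1, a chromatin organiser, rose from 401 and 428 CPM to between 1092 and 1208 CPM (1.47 ± 0.07), and S1pr1, a receptor for exit from lymphoid organs, by 1.27 ± 0.07 on the log2 scale. Tcf7, which encodes TCF-1, was at 693 and 685 CPM and rose to 1075, 1149, 1007 and 1071 CPM (0.64 ± 0.07). The IL-7 receptor gene Il7r rose by 0.89 ± 0.08 and Foxo1 by 0.72 ± 0.07. Id3, a relative of Id2 that favours memory cells, fell from 16.9 and 11.8 CPM to 1.37, 2.11, 1.66 and 1.35 CPM (-3.14 ± 0.25). Myb fell by 1.29 on the log2 scale (SE 0.08), and Ccr7, a receptor for entry into lymph nodes, fell from 321 and 246 CPM to between 198 and 246 CPM (-0.40 ± 0.10).

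Among secreted factors, those for interferon gamma and the macrophage chemokines rose and 3 others fell strongly. Ifng was at 4.19 and 4.75 CPM in unstimulated cells and at 57.5, 56.3, 52.5 and 51.7 CPM with mIL-21 (3.61 ± 0.11). Gm49751, on the same strand, covers 25.9% of the exonic bases of Ifng. Osm, which encodes oncostatin M, rose from 8.76 and 7.80 CPM to between 62.3 and 77.0 CPM (3.06 ± 0.11). Il21 itself passed the test at a trace level, at 0.0481 and 0.0818 CPM and then between 0.146 and 0.502 CPM. Lta, which encodes lymphotoxin alpha, was at 16.8 and 16.9 CPM and fell to 2.18, 2.15, 1.54 and 1.81 CPM (-3.14 ± 0.16), and its partner Ltb fell by 0.53 on the log2 scale (SE 0.10). Tnf, in the same gene cluster, rose by 0.47 ± 0.14. Of 18 cytokine genes listed, 7 were too low to test, among them Il2, Il4 and Il17a, and of the 11 tested 5 rose and 2 fell (63.6%), with a median of 0.09 that turned to -0.11 under mapped-read scaling.

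Of 7 chemokines tested, 4 rose and 2 fell (85.7%). Their median of 1.41 turned to -0.49 with DESeq2, where 8 were tested. Ccl4, which encodes MIP-1 beta, was at 1.13 and 0.764 CPM and rose to 58.4, 64.0, 50.2 and 57.6 CPM (5.90 ± 0.16). Ccl3 rose to between 18.9 and 22.6 CPM from 1.54 and 1.66 CPM, Ccl9 to between 25.2 and 29.6 CPM from 1.88 and 3.38 CPM, and Ccl5 to between 144 and 228 CPM from 77.2 and 62.0 CPM. Xcl1, which attracts cross-presenting dendritic cells, fell from 11.6 and 11.9 CPM to 0.307, 0.394, 0.495 and 0.452 CPM (-4.83 ± 0.27). Cxcl10, the interferon-induced ligand of CXCR3, fell from 4.35 and 4.34 CPM to 0.167, 0.139, 0.379 and 0.290 CPM (-4.24 ± 0.30). The 2 chemokines that fell were below 0.5 CPM in all 4 mIL-21 libraries.

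Chemokine receptors moved in both directions. Of 13 tested, apart from Ccr7 described above, 6 rose, 6 fell and Ccr6 did not pass (92.3%). Mapped-read scaling gave 5 higher and 6 lower, and the median of -0.86 turned to 0.32 when the compared groups were fitted alone. Ccr2, a receptor for inflammatory chemokines, was at 57.2 and 68.7 CPM and rose to 795, 741, 835 and 765 CPM (3.64 ± 0.09). Cxcr6, linked to residence in tissue, rose from 65.8 and 61.5 CPM to between 291 and 327 CPM (2.31 ± 0.08). These 2 receptors had between 4 and 14 times the unstimulated level in every mIL-21 library. Cxcr5, the receptor for entry into follicles, fell from 22.9 and 19.9 CPM to between 4.28 and 5.58 CPM (-2.11 ± 0.13), and Cxcr4 (-1.19 ± 0.09), Ccr4 (-1.54 ± 0.13), Cxcr3 (-0.86 ± 0.08), Ccr9 and Ccr8 also fell. Of 11 integrins, 6 rose and 2 fell. The fallen ones were Itgae, which encodes CD103 and was at 85.7 and 74.7 CPM and then at 17.4, 20.7, 18.03 and 19.9 CPM (-2.08 ± 0.10), and Itgb1 (-1.16 ± 0.07). Itga1, which encodes CD49a, rose from 0.385 and 0.573 CPM to between 3.61 and 4.61 CPM (3.10 ± 0.28).

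Receptors for other cytokines changed widely. Of 18 tested, 10 rose, 5 fell and 3 did not pass (83.3%), and mapped-read scaling gave 9 higher and 8 lower. Il6ra, the IL-6 receptor, which also signals to STAT3, rose from 3.63 and 3.49 CPM to 41.5, 40.3, 38.7 and 38.9 CPM (3.48 ± 0.11). Both chains of the IL-18 receptor rose, Il18r1 from 99.9 and 115 CPM to between 460.2 and 492 CPM (2.13 ± 0.08) and Il18rap from 22.2 and 22.9 CPM to between 109 and 114 CPM (2.31 ± 0.08). The IL-2 receptor alpha chain Il2ra was at 466 and 489 CPM and rose to between 1014 and 1160.5 CPM (1.19 ± 0.07). Among those that fell, Ifngr2, the signaling chain of the interferon gamma receptor, went from 18.1 and 16.9 CPM to 4.04, 4.22, 3.79 and 4.48 CPM (-2.08 ± 0.14), and Il10ra, which binds IL-10, by 1.14 on the log2 scale (SE 0.09). Ifngr1, the binding chain for interferon gamma, rose (0.51 ± 0.06). Il9r fell to between 0.0323 and 0.146 CPM from 1.42 and 1.34 CPM.

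Inhibitory receptors included several of the larger rises at the cell surface. Of 12 tested, 7 rose, 4 fell and Klrg1 did not pass (91.7%), with a median of 0.49. Havcr2, which encodes TIM-3, was at 15.8 and 20.2 CPM and rose to 127, 118, 131 and 122 CPM (2.79 ± 0.10). Btla rose from 24.2 and 29.8 CPM to between 142.81 and 154 CPM (2.46 ± 0.10), Lag3 from 69.2 and 51.2 CPM to between 187 and 259 CPM (1.81 ± 0.12), and Pdcd1, which encodes PD-1, from 20.7 and 15.9 CPM to between 26.9 and 34.3 CPM (0.71 ± 0.12). Ctla4 fell from 273 and 306 CPM to 179, 175, 175 and 180.2 CPM (-0.71 ± 0.08). Of 13 costimulatory and TNF receptor genes, 5 rose and 3 fell (61.5%), with Icos at 123 and 119 CPM and then between 344 and 373 CPM (1.57 ± 0.07), and Tnfrsf4, which encodes OX40, falling to between 9.34 and 14.1 CPM from 26.2 and 24.7 CPM (-1.13 ± 0.14). Mapped-read scaling gave 3 of these 13 higher and 6 lower. Genes of the T cell receptor complex and its first signaling steps rose together by small amounts, with 15 of 18 higher, only Cd5 lower (88.9% called) and a median of 0.40. With mapped reads as library size 8 of them were higher and the median was 0.20.

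**Figure D4:**
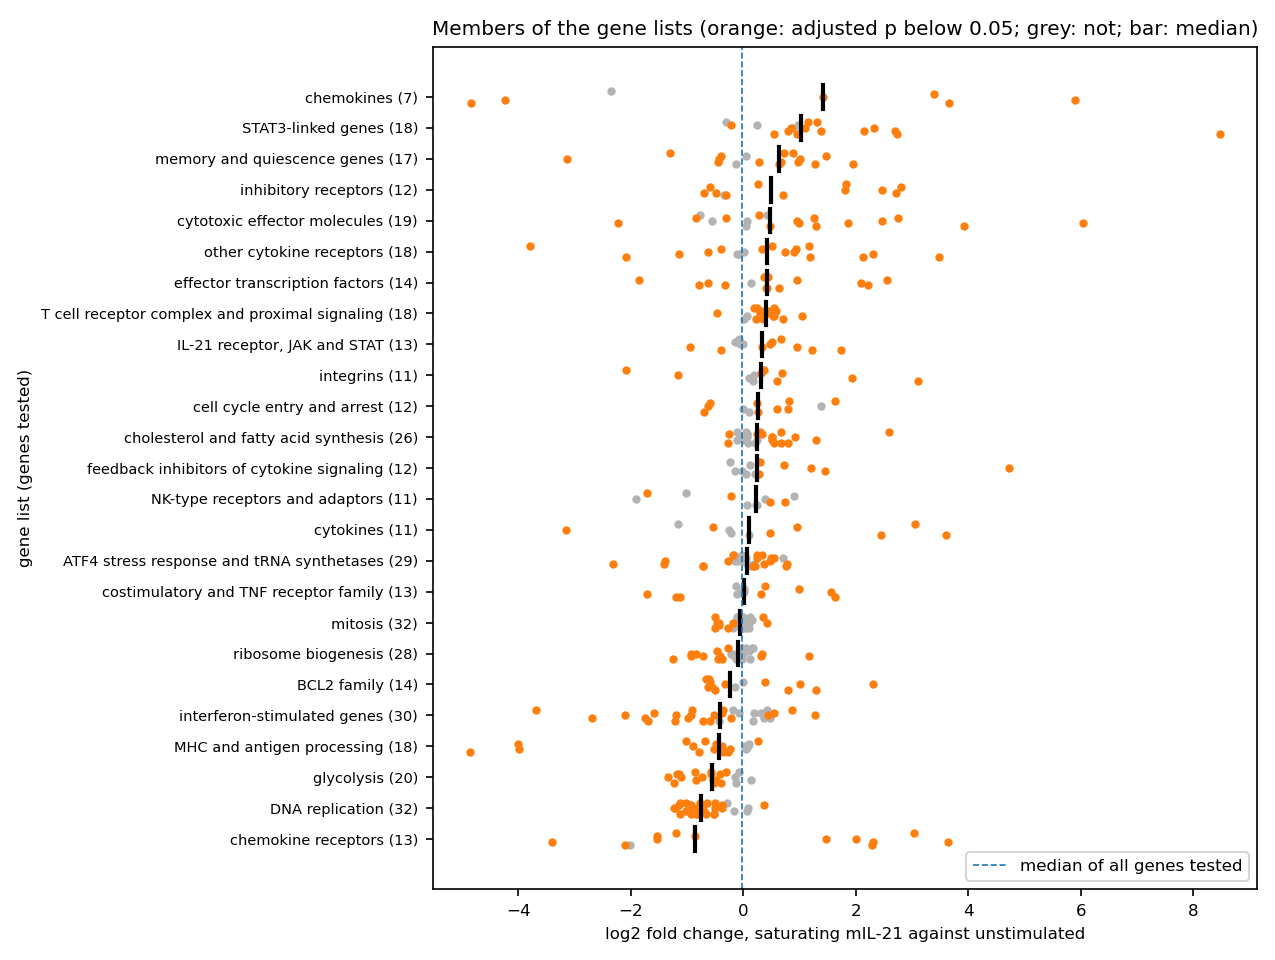
Log2 fold change for saturating mIL-21 against unstimulated cells of each tested member of 25 gene lists, ordered by median; orange points passed the test, grey points did not, black bars are list medians and the dashed line is the median of all genes tested (-0.02). Medians run from -0.86 for chemokine receptors to 1.41 for chemokines, and most lists hold points on both sides of 0.

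Interferon-stimulated genes and genes of antigen presentation were lower on balance. Of 30 interferon-stimulated genes tested, 17 fell, 4 rose and 9 did not pass (70.0%), with a median of -0.41. Ifi44 fell from 5.20 and 6.41 CPM to 0.530, 0.487, 0.495 and 0.290 CPM (-3.68 ± 0.27), Usp18, which limits interferon signals, from 33.3 and 28.0 CPM to between 6.47 and 8.20 CPM (-2.10 ± 0.13), and the GTPase Irgm1 from 242 and 243 CPM to between 98.3 and 110.0 CPM (-1.20 ± 0.07). The members that rose were Ly6a (1.28 ± 0.11), Zbp1 (0.86 ± 0.07), Ly6c2 (0.54 ± 0.09) and Gbp2 (0.44 ± 0.07), and without Unstim replicate 2 there were 7 higher. Ifitm1, an interferon-induced gene outside this list, rose by 6.83 ± 0.14 as given above. Of 18 genes of MHC and antigen processing, 13 fell, B2m alone rose and 4 did not pass (77.8%), with a median of -0.43, and under mapped-read scaling B2m no longer passed as higher. The peptide transporter Tap1 fell from 437 and 359 CPM to between 220.3 and 251 CPM (-0.78 ± 0.08) and the immunoproteasome subunit Psmb9 from 146 and 120.2 CPM to between 62.0 and 68.9 CPM (-1.02 ± 0.08).

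The MHC class II genes fell the most within that list, and most B cell markers fell as well. Cd74, the class II invariant chain, was at 17.6 and 13.4 CPM and fell to 0.864, 0.973, 0.786 and 1.29 CPM (-3.99 ± 0.20). H2-Eb1 went from 3.06 and 1.72 CPM to between 0 and 0.226 CPM, and H2-Aa from 2.17 and 1.96 CPM to between 0 and 0.291 CPM. The B cell marker Ms4a1 was at 0.938 and 0.982 CPM in unstimulated cells and at most at 0.0291 CPM with mIL-21. All 6 B cell markers together summed to 11.4 to 13.8 CPM without cytokine and to 7.33 to 7.94 CPM with it, and 4 of the 6 fell. Cd22 (log2 fold change -0.88) and Pax5 (1.01) did not pass. Most of the sum was Cd79b, at 10.2 and 7.64 CPM and then between 6.11 and 7.13 CPM. The part of B cells in the result was not tested. Itgam, which encodes CD11b and marks myeloid cells as well as some activated T cells, rose from 3.15 and 3.08 CPM to 107.8, 103.5, 101.3 and 101.3 CPM, while the myeloid markers Csf1r, Lyz2 and Cd14 were all below 0.4 CPM in every one of the 6 libraries. In bulk RNA, fewer cells of a type and less RNA per cell cannot be told apart.

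Genes of DNA replication fell together, while most mitotic genes did not pass the test. Of 32 replication genes tested, 27 fell, Ccne1 rose and 4 did not pass (87.5%), with a median of -0.75. Mcm6, a subunit of the replicative helicase, fell from 834 and 798 CPM to 371, 361, 389 and 366 CPM (-1.13 ± 0.06), and the DNA ligase Lig1 from 357 and 357 CPM to between 157 and 174 CPM (-1.13 ± 0.07). Of 32 mitotic genes, 8 fell, 2 rose and 22 did not pass (31.2%, beside 52.5% of all genes). Without Unstim replicate 2, 7 were higher and 9 lower. Mki67, a marker of cycling cells, stood at 1672 and 2212 CPM without cytokine and at 2049.5, 1936, 2120.3 and 2230.3 CPM with it (0.10 ± 0.10). Under mapped-read scaling 29 replication genes and 23 mitotic genes were lower, and no replication gene was higher. Of 12 genes of cell cycle entry and arrest, 6 rose and 3 fell (4 and 4 under mapped-read scaling), with the inhibitor Cdkn2d rising from 51.7 and 38.7 CPM to between 127 and 148 CPM (1.63 ± 0.11) and cyclin D2 (Ccnd2) falling from 383 and 387 CPM to between 224 and 247 CPM (-0.70 ± 0.07).

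Most glycolytic genes fell, and genes of sterol and fatty acid synthesis passed the test at a share near that of all genes. Of 20 genes of glycolysis and its hypoxia-linked regulation, 16 fell, none rose and 4 did not pass (80.0%), with a median of -0.55. Hk2, the inducible hexokinase, fell from 145 and 138.46 CPM to 58.4, 66.5, 57.9 and 74.3 CPM (-1.14 ± 0.12), and Pdk1, which restrains entry of pyruvate into mitochondria, from 319.6 and 332 CPM to between 126 and 169 CPM (-1.11 ± 0.10). Of 26 lipid genes, 13 rose and 2 fell (57.7%), with the fatty acid elongase Elovl6 rising from 49.6 and 55.6 CPM to 332, 322, 305 and 306 CPM (2.59 ± 0.08). Under mapped-read scaling 10 of these were higher and 4 lower. Among 28 ribosome biogenesis genes 3 rose and 10 fell (46.4%), and mapped-read scaling gave 1 higher and 17 lower. Of 29 genes of the ATF4 stress response and tRNA synthetases 11 rose and 7 fell (62.1%), a balance that turned to 5 higher and 12 lower under mapped-read scaling.

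Genes of the BCL2 family changed on both sides of the survival balance. Of 14 tested, 5 rose, 7 fell and 2 did not pass (85.7%). Without Unstim replicate 1, 5 were higher and 3 lower. The rises comprised the survival genes Mcl1, from 278 and 317 CPM to between 587 and 614 CPM (1.01 ± 0.07), and Bcl2 (0.80 ± 0.07), and the death-promoting genes Pmaip1, from 22.1 and 25.2 CPM to 123, 107, 127 and 112 CPM (2.31 ± 0.10), Bcl2l11 (1.30 ± 0.08) and Bak1 (0.38 ± 0.09). The falls included Bcl2l1, which encodes the survival protein BCL-XL (-0.55 ± 0.10), and the death-promoting genes Bmf and Bbc3. Receptors and adaptors of NK type held 2 of 11 higher and 2 lower (36.4%, beside 52.5% of all genes), or 2 higher and 4 lower under mapped-read scaling. No fall was called without Unstim replicate 2 or without mIL-21 10 nM replicate 2. The rises were those of Klra7 (0.74 ± 0.12) and Klrc1 (0.47 ± 0.09), which share near-identical sequence with Klra13-ps and Klrc2, and Klrb1c and Klrk1 fell.

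The designed protein 21h10, given at the same doses in the same experiment, allowed the mIL-21 response to be compared between agents. Averaged over both doses, 655 genes were higher and 703 lower with mIL-21 than with 21h10, or 9.86% of those tested. The total of both depended on single libraries, and was 591 without mIL-21 10 nM replicate 2, 574 without mIL-21 100 nM replicate 1, 883 and 508 without 21h10 10 nM replicates 1 and 2, and 863 and 569 without 21h10 100 nM replicates 1 and 2. By the naming rule the largest differences were Snora62, Crhbp and Itgae, higher with mIL-21, and Il24, Fam19a3 and Xkrx, lower. Itgae, at 17.4, 20.7, 18.03 and 19.9 CPM with mIL-21, was at 14.999 and 14.2 CPM with 10 nM and at 5.90 and 4.87 CPM with 100 nM 21h10 (1.10, adjusted p = 4.89e-06). Crhbp, which binds corticotropin-releasing hormone, was at 2.90, 2.94, 3.12 and 3.84 CPM with mIL-21, at 2.81 and 2.10 CPM with 10 nM 21h10 and at 0.497 and 0.595 CPM with 100 nM 21h10 (1.46, adjusted p = 0.000817). Il24, a cytokine of the IL-10 family, was between 0.788 and 1.29 CPM with mIL-21, at 1.57 and 1.71 CPM with 10 nM 21h10 and at 17.4 and 13.2 CPM with 100 nM 21h10 (-2.33, adjusted p = 9.53e-06). In each of these 3 genes the 100 nM 21h10 libraries were farther from mIL-21 than the 10 nM ones.

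Fam19a3 showed the same order, with 7.22, 5.91, 6.52 and 5.23 CPM with mIL-21, 9.05 and 10.9 CPM with 10 nM 21h10 and 66.0 and 53.8 CPM with 100 nM 21h10 (-1.98). Xkrx was uneven among the mIL-21 libraries, at 11.517, 3.68, 6.79 and 26.1 CPM, and between 30.0 and 62.6 CPM with 21h10 (-1.94). Snora62, a small nucleolar RNA, was below 0.34 CPM in every library, so that its difference of 3.75 rests on few reads. Among the genes most changed by mIL-21, Serpinb1a (0.57), Ggt1 (0.72) and Ifitm1 (0.84) were also higher than with 21h10, averaged over both doses. Moxd1 (-0.46), Gzma (-0.37) and Gzmb (-0.22) were lower, and all of these passed the test. Ifitm1 was at 700 and 625 CPM with 10 nM 21h10 and at 247 and 255 CPM with 100 nM 21h10. Ggt1 was at 282 and 258 CPM and then at 125 and 113 CPM. Serpinb1a, between 129 and 145 CPM with mIL-21, was at 131 and 120 CPM and then at 66.6 and 69.1 CPM. Moxd1 was at 66.3 and 61.8 CPM and then at 85.6 and 81.4 CPM. Socs3 (0.12), Pim1 (0.00) and Id2 (-0.00) did not pass the test. Eomes was at 42.6 to 48.0 CPM with mIL-21 and was lower than with 21h10 (-1.55).

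**Figure D5:**
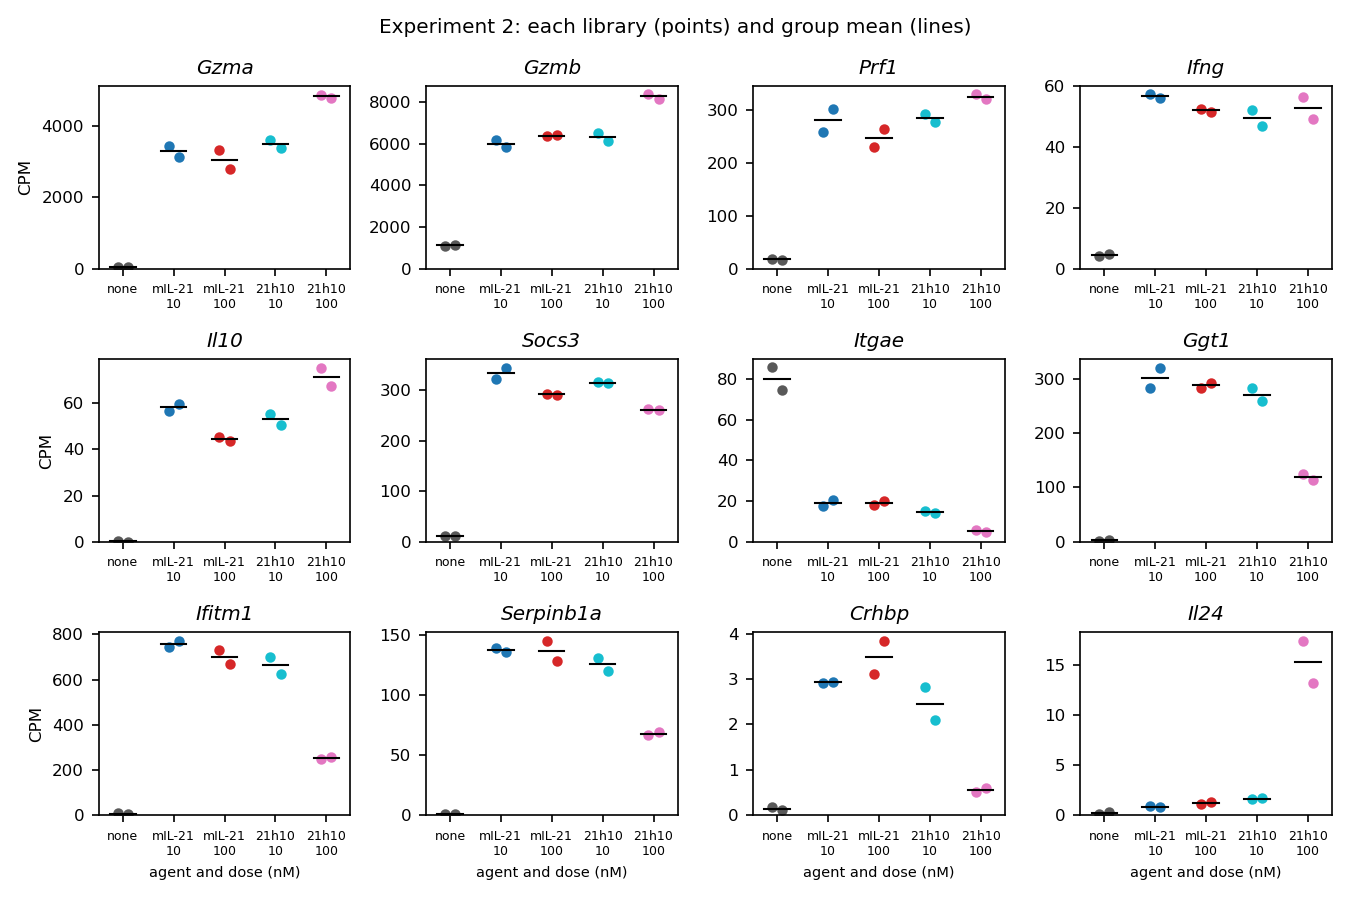
CPM of 12 genes in the 10 libraries of experiment 2, each panel with its own linear axis from 0, points for libraries and lines for the mean of 2. The mIL-21 libraries at 10 nM and 100 nM overlap in some panels and not in others. For Il10 they are at 56.6 and 59.7 CPM with 10 nM and at 45.2 and 43.8 CPM with 100 nM. At 100 nM 21h10, Itgae (5.90 and 4.87 CPM) and Crhbp (0.497 and 0.595 CPM) are lower than in the other cytokine groups. Il24 (17.4 and 13.2 CPM) is higher there.

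Experiment 1 held cells with 1 nM mIL-21 and its own unstimulated cells, 2 libraries each. The response to saturating mIL-21 differed from the response to 1 nM mIL-21 for 8779 of 14530 genes (60.4%) in a fit of all 20 libraries, with 4288 differences in the positive and 4491 in the negative direction. Dose and experiment cannot be told apart in this comparison. For Pim1 no difference between the responses was called. This gene, at 41.6 and 42.9 CPM without cytokine in experiment 1 and at 259.9 and 277.3 CPM with 1 nM, had a difference between responses of -0.03 ± 0.09. Gzma (1.32 ± 0.11), Prf1 (1.01 ± 0.12) and Il10 (3.76 ± 0.38) had the larger response in experiment 2, and Socs3 the smaller (-0.85 ± 0.10), with 6.57 and 6.67 CPM and then 295.8 and 312.4 CPM in experiment 1.

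Others passed the test of the difference. Ifng was at 5.60 and 5.45 CPM without cytokine and at 6.47 and 5.28 CPM with 1 nM mIL-21, and the difference between the responses was 3.48 ± 0.15. Il6ra was at 2.70 and 2.63 CPM and then at 2.74 and 3.19 CPM in experiment 1 (3.28 ± 0.17). The glucose transporter gene Slc2a3, at 79.1 and 79.7 CPM and then 927 and 910 CPM in experiment 1, stood at 252 and 236 CPM without cytokine and between 249.7 and 306 CPM with it in experiment 2 (-3.45 ± 0.11). Levels in unstimulated cells were not the same in both experiments, with Bnip3, a mitochondrial hypoxia gene, at 48.6 and 47.2 CPM in experiment 1 and at 196 and 217 CPM in experiment 2. By the naming rule the largest differences were Afap1l1, Miat and Snora62 in the positive direction and Ovol1, Hey1 and Rasl12 in the negative direction. Ovol1, an epithelial transcription factor, was at 0.0973 and 0.0909 CPM without cytokine in experiment 1 and at 5.52 and 6.07 CPM with 1 nM, and was at 0.241 and 0.573 CPM in the unstimulated and at most at 0.0279 CPM in the mIL-21 libraries of experiment 2.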

How the data were processed

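RNA-sequencing libraries (KAPA mRNA HyperPrep, Illumina NovaSeq) were made by the authors, who mapped reads to mm10 (GRCm38) with TopHat2 2.0.11 and counted reads on exons. The submitters' processing notes also name Bowtie2 2.2.6, SAMtools 0.1.8, bedtools 2.25.0 and edgeR. The deposited table of each library gives raw read counts and RPKM for 31682 RefSeq transcripts, the RPKM computed by the authors from counts, length and mapped reads. Counts of the longest transcript of each of 23992 symbols were used, since the transcripts of a gene share reads.

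Genes were filtered with filterByExpr (minimum count 10, minimum total 15). Counts of the 10 libraries of experiment 2 were fitted with group as the only factor in edgeR 4.0.16 (R 4.3.3), with TMM scaling and the quasi-likelihood test, and adjusted by Benjamini-Hochberg. SE is the log2 fold change divided by the square root of F. The comparison with experiment 1 used all 20 libraries. Libraries of a group differed by more than counting noise, and the biological coefficient of variation was 8.80%. The chi-square per degree of freedom was 40.6 for unstimulated cells and 20.6 and 11.9 for 10 and 100 nM mIL-21. For 10 and 100 nM 21h10 it was 9.61 and 6.84. The spread shared by all groups may therefore be too small for the unstimulated libraries. On simulated counts for 13377 genes of this comparison, 58.3% of 96 genes changed by 0.5 log2 units and 72% of 100 changed by 1 were recovered, with 5.88% of calls false. The simulation changed few genes, whereas 52.5% were called in the data, and it drew counts from the model of the fit. These shares need not hold for the data. Alternatives used DESeq2 1.42.0, limma 3.58.1 on log2(RPKM + 1) with RPKM of at least 1 in 2 libraries, other scalings and filters, single libraries left out and a replicate block. Transcript copies were sought with BLAST 2.17.0 (at least 95% identity over 100 bases) and exon overlaps in GENCODE M21. CPM floors and intervals cover counting error and library spread only.

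The comparison, its libraries and the 25 gene lists were chosen with earlier results of these data known. Named were list members, the 12 largest rises and 12 largest falls that passed the test, kept all 4 treated libraries on one side of the controls and reached an average RPKM of 1 where higher, the 3 largest each way in the comparisons with 21h10 and with 1 nM, and the 3 smallest p between doses. Cell type markers were named from a fixed list. Some genes of the lists are counted but not reported by name here.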

Additional observations from a re-analysis of the deposited data

Results flagged for a closer look

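For 1 of the 24 most changed genes, a library stood apart from the others of the 4 with mIL-21. Pdia5 was at 0.232 CPM in mIL-21 10 nM replicate 2 and between 0.495 and 0.548 CPM in the other libraries. The gap as a share of the range of the 4 values was just above Dixon's critical value of 0.829. Chance alone marks about 1 in 20 such groups.

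By an interaction test in edgeR, the responses to saturating mIL-21 (experiment 2) and to 1 nM (experiment 1) differed for 60.4% of 14530 genes. Flagged here are 6 of them, the 3 largest in each direction by the naming rule. Dose and experiment cannot be told apart. The log2 difference was 7.30 for Afap1l1 (adjusted p = 1.78e-07), 6.90 for Miat (adjusted p = 3.15e-09) and 6.43 for Snora62 (adjusted p = 0.000853). It was -11.85 for Ovol1 (adjusted p = 1.69e-09), -9.81 for Hey1 (adjusted p = 1.55e-10) and -8.73 for Rasl12 (adjusted p = 4.57e-09). Miat, at 0.389 and 0.345 CPM without cytokine and 1.18 and 0.584 CPM with 1 nM in experiment 1, was between 23.01 and 33.2 CPM with saturating mIL-21. Hey1 reached 6.14 and 6.79 CPM with 1 nM in experiment 1 and was at most at 0.0695 CPM in the mIL-21 libraries of experiment 2. Several of these differences rest on groups with 3 reads or fewer per library, so their size depends on the prior count of the fit.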

How the results depend on the processing

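A size limit of 1 log2 unit left 2018 genes for saturating mIL-21 (1015 higher, 1003 lower), 1869 (970, 899) at 10 nM, 1899 (999, 900) at 100 nM, 169 (15, 154) against 21h10 and 3908 (1482, 2426) against the 1 nM response. With limma on log2(RPKM + 1), 1789 genes were higher and 4743 lower with saturating mIL-21, 1691 were higher at 10 nM and 1523 at 100 nM, and against 21h10 1040 were higher and 289 lower. With mapped reads as library size these were 2107, 2004 and 1821 higher, 5198 lower at 100 nM, and 1513 higher and 465 lower against 21h10. Without the filter on low counts 14 genes differed between doses (11 higher, 3 lower) and 1067 were higher than with 21h10. The fit of the compared groups alone gave 2231 genes (1154 higher, 1077 lower) against 21h10. Leaving out each library in turn gave 508 to 1148 genes against 21h10 (244 to 546 higher, 264 to 602 lower), 5957 to 6982 for saturating mIL-21 and 0 between doses. The causes were not tested. The sign turned for 5 named genes under limma and under mapped-read scaling: Il10rb (-0.19 and -0.20), Cd2 (-0.019 and -0.018), Ect2 (-0.19 and -0.20), Gars (-0.026 and -0.028) and Lars (-0.18 and -0.18). Of 467 named genes, 457 kept their call with DESeq2, 465 with RLE scaling, 466 with the transcript that has most reads, 450 without the filter on low counts, 372 with mapped reads as library size and 418 without Unstim replicate 1. Those tested numbered 437 with limma, where 350 kept it, and 466 without Unstim replicate 2, where 427 did.

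The labels do not say whether same-numbered libraries of different groups were paired. Their deviations correlated at -0.167 to 0.227, which cannot settle it with 2 libraries a group. With a replicate block 7365 genes passed for saturating mIL-21 (3517 higher, 3848 lower), and 0 between doses.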
